A study of Homo sapiens with 2 samples.

Results

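Amino acids enter and leave human cells through carriers of the solute carrier (SLC) families. The genes described here encode 10 such proteins of the plasma membrane: SLC7A5, SLC3A2, SLC7A11, SLC7A1, SLC7A6, SLC1A4, SLC1A5, SLC38A1, SLC38A2 and SLC43A1. They were chosen by name, with knowledge of the FPKM that these same libraries gave for them, out of 26257 gene symbols in the isoform table. All 10 symbols were found, with 27 isoforms among them, and all 10 had a mean of at least 1 FPKM (fragments scaled by transcript length and library size) over both libraries, as did 11688 symbols in all. Because the choice drew on the same comparison, the differences below are a description and carry no test.

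The RNA came from HCT-116, an established human colorectal carcinoma line grown in DMEM with serum and antibiotics. The control group is 1 library of cells without treatment, and the LPA group is 1 library of cells that received lysophosphatidic acid (LPA), a lipid ligand of G protein-coupled receptors, at 10 µM over 24 h in serum-starved culture. The labels used here do not state whether the control cells were starved as well, so LPA and a difference in serum cannot be told apart. With 1 library per group, no replicate error is known and no p-value is given.

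As background, the carriers work in linked steps. SLC1A5, SLC38A1 and SLC38A2 take up glutamine and other small neutral amino acids together with sodium, and the heterodimers that SLC3A2 forms with light chains such as SLC7A5 and SLC7A11 then exchange intracellular amino acids for extracellular ones. Imported leucine and glutamine feed protein synthesis and mTORC1 signalling, and several carrier genes are known targets of ATF4, the transcription factor of the amino acid response, and of MYC. Tumour cells of the colon commonly carry high levels of SLC7A5 and SLC1A5.

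Of the 10 genes, 9 had more FPKM in the LPA library than in the control library and 1, SLC38A2, had less. The pair that forms the main exchanger of large neutral amino acids, SLC7A5 and SLC3A2, had the highest log2 ratios, followed by the cystine carrier gene SLC7A11. Each log2 ratio was computed as log2((LPA FPKM + 1)/(control FPKM + 1)), which draws the ratios of weakly expressed genes towards 0. The median over the 10 genes was 0.50, beside 0.0009 over all 11688 genes. A log2 ratio above 0 was found in 9 of 10 transporter genes and in 50.2% of all genes. At a 1.5-fold limit 3 of the 10 were higher, beside 1.45% of all genes, and 0 were lower, beside 1.54%. Over all genes these were 169 higher and 180 lower, or 132 and 253 when the ratios were centred on a list of reference genes. At a 2-fold limit SLC7A5 was the 1 gene higher, beside 0.351% of all genes, or 41 of 11688. Centring on the reference genes left 0 of the 10 at this limit, beside 36 of 11688 over all genes. Using leading isoforms gave 3 of the 10, beside 122 of 11375 over all genes. The choice of the genes used this contrast, so nothing is read from these shares.

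The windows described here lie around the annotated transcription start sites of these genes. Where transcripts begin in these cells was not mapped. RefSeq promoter windows of GRCh38.p14 spanned 250 bases before the start site and 50 from it onwards. They were found for 9 of the 10 genes, 16 windows in all, and SLC7A11 had none. Both SLC38A1 windows were tied to no deposited transcript, so the annotated start of its leading transcript was not searched. The windows were searched on both strands for TGATGNAA, the core of the C/EBP-ATF response element that ATF4 dimers bind, and for CACGTG, the E-box that MYC dimers bind; these motifs do not overlap each other in the windows. The windows below are those of the only SLC7A5 start, of the leading SLC3A2 start, of both main SLC1A5 starts, and of the SLC1A4 and SLC7A1 starts that hold the ATF core. Each is written 5′ to 3′ on the strand of the gene. Capitals mark motif matches and the base at the start site.
SLC7A5 (chr16:87869458-87869757, minus strand): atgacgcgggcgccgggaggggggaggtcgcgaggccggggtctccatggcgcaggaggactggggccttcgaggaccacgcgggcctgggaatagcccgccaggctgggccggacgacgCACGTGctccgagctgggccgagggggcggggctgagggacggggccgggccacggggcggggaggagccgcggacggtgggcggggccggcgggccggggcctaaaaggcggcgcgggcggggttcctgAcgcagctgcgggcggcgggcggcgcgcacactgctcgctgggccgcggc
SLC3A2, start of NM_001013251 (chr11:62880646-62880945, plus strand): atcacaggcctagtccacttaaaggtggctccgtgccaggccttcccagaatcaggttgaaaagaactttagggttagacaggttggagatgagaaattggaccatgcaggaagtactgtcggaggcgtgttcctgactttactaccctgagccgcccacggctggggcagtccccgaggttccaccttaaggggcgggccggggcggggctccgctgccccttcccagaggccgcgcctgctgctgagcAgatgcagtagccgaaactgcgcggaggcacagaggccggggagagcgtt
SLC1A5, downstream start of NM_001145144 (chr19:46787244-46787543, minus strand): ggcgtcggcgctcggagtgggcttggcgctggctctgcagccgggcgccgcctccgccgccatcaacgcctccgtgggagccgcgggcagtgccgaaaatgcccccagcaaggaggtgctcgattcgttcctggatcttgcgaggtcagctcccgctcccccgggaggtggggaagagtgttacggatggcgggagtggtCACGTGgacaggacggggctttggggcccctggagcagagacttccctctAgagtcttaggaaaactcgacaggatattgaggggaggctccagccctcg
SLC1A5, upstream start of NM_005628 (chr19:46788545-46788844, minus strand): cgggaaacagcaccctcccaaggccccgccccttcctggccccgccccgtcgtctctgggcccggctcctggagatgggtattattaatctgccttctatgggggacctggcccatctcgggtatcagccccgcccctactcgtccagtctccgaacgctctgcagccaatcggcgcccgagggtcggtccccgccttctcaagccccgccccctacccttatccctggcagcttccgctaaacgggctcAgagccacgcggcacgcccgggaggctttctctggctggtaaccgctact
SLC1A4 (chr2:64989149-64989448, plus strand): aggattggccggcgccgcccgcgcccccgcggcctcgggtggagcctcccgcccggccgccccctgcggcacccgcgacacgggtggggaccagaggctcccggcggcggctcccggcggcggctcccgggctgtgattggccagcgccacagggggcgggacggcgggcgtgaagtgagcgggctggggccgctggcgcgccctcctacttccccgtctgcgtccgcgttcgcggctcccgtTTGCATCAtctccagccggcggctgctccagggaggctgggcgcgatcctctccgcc
SLC7A1 (chr13:29595639-29595938, minus strand): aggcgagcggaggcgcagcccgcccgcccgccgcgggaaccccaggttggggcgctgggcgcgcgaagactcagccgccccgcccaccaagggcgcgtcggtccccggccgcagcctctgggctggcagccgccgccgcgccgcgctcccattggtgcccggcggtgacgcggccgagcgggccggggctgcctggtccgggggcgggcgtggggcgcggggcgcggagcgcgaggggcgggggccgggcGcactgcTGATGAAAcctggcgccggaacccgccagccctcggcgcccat

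The ATF core was present in 5 of the 16 windows and in 3.62% of the 35116 windows of all genes. The E-box was present in 3 of the 16 and in 7.26% of all. In SLC7A5 the E-box begins 130 bases before the start site. In SLC1A5 the E-box lies in the window of the downstream start, 50 bases before it, and the upstream window holds neither motif. SLC43A1 has an E-box 112 bases before the start of its leading transcript. The ATF core in SLC1A4, read as TTGCATCA, ends on the start base, and that in SLC7A1, TGATGAAA, begins at base 8 of the transcript. The other 3 windows with the ATF core belong to starts with little or no matched FPKM: the start of the SLC3A2 transcript NR_037193, the start of the SLC1A5 transcript NM_001145145, and an SLC38A1 start far from the annotated starts of the deposited transcripts. The window of the leading SLC3A2 start holds neither motif. A match is a run of letters and not a measured binding site, and elements outside a window, such as those in introns, were not searched.

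SLC7A5, also called LAT1, is the light chain that imports leucine, phenylalanine and other large neutral amino acids in exchange for glutamine. The gene lies at chr16:87830023-87869494 (hg38) and has 1 isoform in the table. It had 81.8 FPKM in the control library and 170 FPKM in the LPA library, 2.08 times as much, a log2 ratio of 1.05. The deposited FPKM bounds, whose confidence level is not stated, were 59.4 to 104 in the control and 123 to 218 in the LPA library and did not overlap. Among all 11688 genes 36 had a higher log2 ratio, and among 198 genes with a symbol that starts with SLC it was the highest. Depth was estimated from small FPKM values at about 16700000 fragments for the control and 15800000 for LPA-treated cells. At that depth the SLC7A5 values rest on about 6223 and 12192 fragments. Counting error alone then gives a standard error of 0.02 on the log2 of the plain FPKM ratio, without the pseudocount. This error leaves out all variation between cultures.

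SLC3A2, or 4F2hc, is the glycoprotein heavy chain that carries SLC7A5, SLC7A6, SLC7A11 and other light chains to the cell surface. It lies at chr11:62856012-62888883 and had 148 FPKM in control cells and 271 FPKM after LPA, a log2 ratio of 0.87 and the second highest among the SLC genes. Its 6 isoforms start at 3 groups of sites. The transcript NM_001013251, whose promoter window is printed above, had 108 FPKM in control cells and 218 FPKM after LPA, with separate bounds of 73.3 to 144 and 149 to 287. It held 73.4% of the gene's FPKM in control cells and 80.5% after LPA, and 88.9% of the difference in the gene's FPKM. The transcripts from the upstream start summed to 37.7 and 47.5 FPKM, which is 1.26 times as much, against 2.01 times for NM_001013251. The deposited estimates thus place most of the gene's difference in NM_001013251. The matched model of this transcript has 147 exonic bases that are in no other SLC3A2 model, and those of the upstream transcripts have 0 to 102, so this division also depends on the authors' software. In GENCODE release 29 the model matched to NM_001013251 encodes 529 residues, and those matched to the upstream transcripts NM_002394 and NM_001012662 encode 630 and 631. The transcript NR_037193 is non-coding in RefSeq, though its matched GENCODE model encodes 175 residues. It was low in both libraries, at 1.54 and 5.52 FPKM with overlapping bounds.

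Heavy and light chains were compared on the per-length FPKM scale. The 6 listed light chain genes that pair with SLC3A2 (SLC7A5, SLC7A6, SLC7A7, SLC7A8, SLC7A10 and SLC7A11) summed to 93.9 FPKM in control cells and 186 FPKM after LPA. SLC3A2 thus had 1.57 times the summed light chain level in control cells and 1.46 times after LPA. SLC7A5 alone made up 87.2% of the light chain sum in control cells and 91.7% after LPA. Both sides of the heterodimer were higher after LPA, the heavy chain by a factor of 1.84 and the light chain sum by 1.98.

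SLC7A11, or xCT, exports glutamate and imports cystine, the source of cysteine for glutathione. Its table locus is chr4:138027423-138242349. It was far less abundant than SLC7A5, with 2.29 FPKM in control cells and 4.38 FPKM after LPA, which is 1.92 times as much and a log2 ratio of 0.71. Bounds of 1.59 to 2.99 and 3.15 to 5.62 FPKM were separate. About 370 and 667 fragments lie behind these values. Its log2 ratio was the most dependent on the pseudocount among the 3 highest, at 0.91 with 0.1 in place of 1 and 0.36 with 5. The antisense gene SLC7A11-AS1 in the same locus was listed at 0 in both libraries.

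SLC7A6, or y+LAT2, is another SLC3A2 partner and exchanges cationic amino acids such as arginine for glutamine and sodium. It had 4.96 FPKM in control cells and 6.84 FPKM after LPA (log2 ratio 0.40). Of its 2 transcripts NM_003983 had 4.14 and 6.22 FPKM, and NM_001076785 had 0.820 and 0.623 FPKM, with overlapping bounds in both cases. The neighbouring gene SLC7A6OS shares the table locus (chr16:68264516-68310965) and had 9.25 and 13.0 FPKM. The library kit does not mark strand, so reads of parts where the genes overlap cannot be told apart.

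SLC7A1, or CAT1, imports arginine, lysine and ornithine and works without a heavy chain. The gene is at chr13:29509414-29595688 and had 8.17 FPKM in control cells and 12.7 FPKM after LPA. The log2 ratio of 0.58 lies just under the 1.5-fold limit because of the pseudocount, since the plain ratio of the FPKM is 1.55. Its bounds, 5.89 to 10.4 and 9.20 to 16.1, overlapped. Of the cationic carriers in these cells SLC7A1 had 1.65 times the FPKM of SLC7A6 in control cells and 1.85 times after LPA.

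SLC43A1, or LAT3, moves large neutral amino acids without SLC3A2 and without exchange. It had 1.30 FPKM in control cells and 1.96 FPKM after LPA (log2 ratio 0.36), with about 55 and 78 fragments behind the values. The counting standard error of 0.25 is the largest of the 10 genes, and the bounds of its leading transcript overlapped. This error belongs to the log2 of the plain FPKM ratio, not to the log2 ratio of 0.36, which the pseudocount draws towards 0. Of the system L carriers, SLC7A5 had 62.7 times the FPKM of SLC43A1 in control cells and 86.8 times after LPA.

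**Figure D1:**
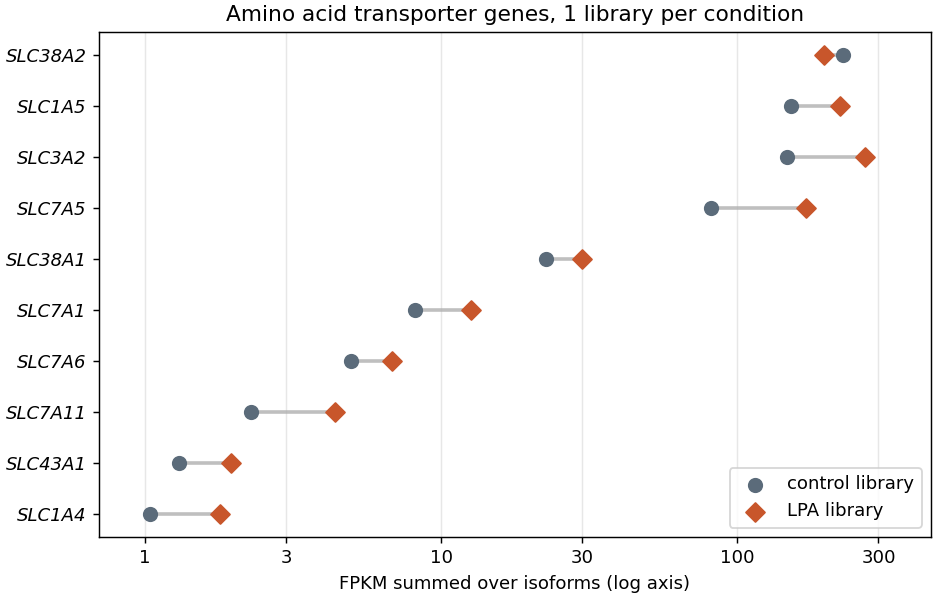
FPKM of the 10 transporter genes, summed over isoforms, in the control library (circles) and the LPA library (diamonds) on a log axis, 1 library each and no error bars. SLC38A2 is the 1 gene whose LPA value lies to the left of its control value, and SLC7A5, SLC3A2 and SLC7A11 show the widest gaps.

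SLC1A5, or ASCT2, takes up glutamine in exchange for other neutral amino acids. The gene lies at chr19:46774883-46788585 and had 152 FPKM in control cells and 222 FPKM after LPA, a log2 ratio of 0.54. Nearly all of this difference was assigned to 1 transcript. NM_001145144, which starts at the downstream site, had 62.3 FPKM in control cells and 128 FPKM after LPA, 2.05 times as much. NM_005628, which starts upstream and encodes the full-length carrier, had 87.9 and 92.9 FPKM, 1.06 times as much. The remaining transcript, NM_001145145, had 2.001 and 1.13 FPKM. The share of the gene's FPKM in NM_001145144 was 41.0% in control cells and 57.6% after LPA, so the leading transcript differed between the libraries.

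This split of SLC1A5 is less certain than the sum. The bounds of NM_001145144, 31.4 to 93.3 in the control and 75.9 to 180 in the LPA library, overlapped. In GENCODE release 29 the model matched to NM_001145144 has 104 exonic bases that are in neither other SLC1A5 model, while that of NM_005628 has 1197. The models encode 313 and 541 residues, the shorter one lacking the start of the protein. Because most exons are shared, the division of fragments between these transcripts depends on the authors' software.

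SLC1A4, or ASCT1, exchanges serine, alanine and threonine. It was the least abundant of the 10 genes in both libraries, with 1.04 FPKM in control cells and 1.80 FPKM after LPA. The log2 ratio was 0.45, with about 80 and 130 fragments behind the values. The counting standard error was 0.20 on the log2 of the plain FPKM ratio, without the pseudocount. The bounds of its leading transcript were 0.617 to 1.45 and 1.16 to 2.43 FPKM and overlapped. SLC1A5 had 146 times its FPKM in control cells and 123 times after LPA.

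SLC38A1 and SLC38A2, or SNAT1 and SNAT2, are sodium-coupled importers of small neutral amino acids with neighbouring genes on chromosome 12. SLC38A2 (chr12:46358188-46372862) had the highest level of the 10 in the control, 228 FPKM, and 196 FPKM in the LPA library, a log2 ratio of -0.22. Both of its transcripts were lower, NM_018976 with 124 and 115 FPKM and NM_001307936 with 104 and 80.7 FPKM, and their bounds overlapped widely. They share a start, and the model matched to NM_001307936 has 0 exonic bases outside that of NM_018976. The division between these transcripts thus also depends on the authors' software. SLC38A1 (chr12:46183056-46269425) was higher, with 22.7 FPKM in control cells and 29.996 FPKM after LPA (log2 ratio 0.39). Its leading transcript NM_001278389 had 21.3 and 26.6 FPKM, again with overlapping bounds, and held 93.9% and 88.6% of the gene's FPKM. The ratio of SLC38A2 to SLC38A1 was 10.1 in control cells and 6.54 after LPA.

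**Figure D2:**
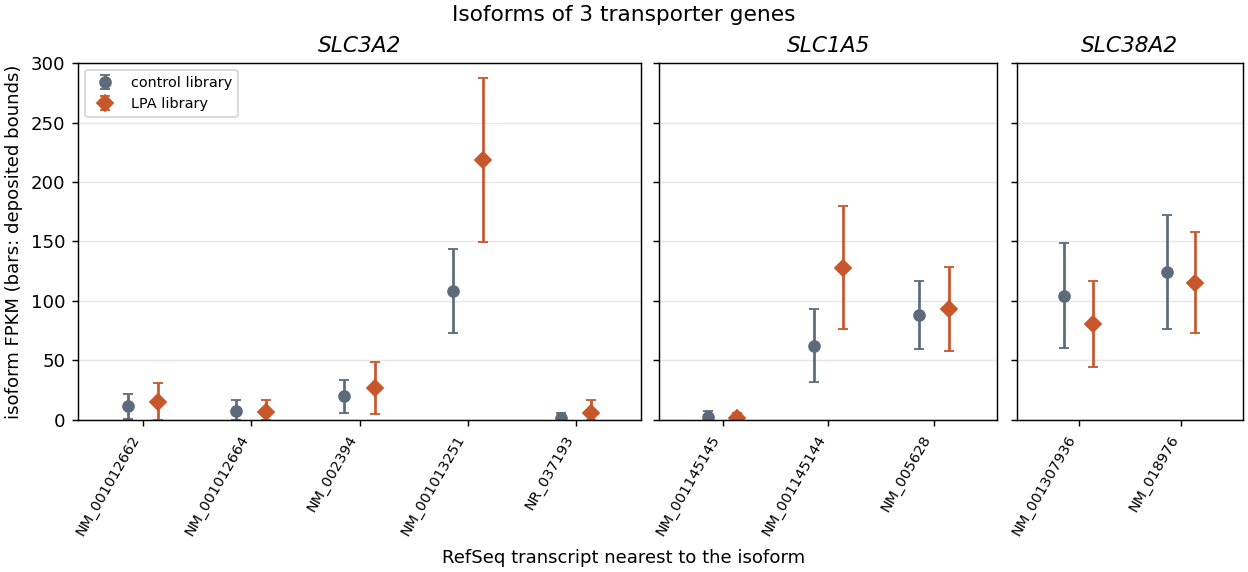
FPKM of the annotated isoforms of SLC3A2, SLC1A5 and SLC38A2 in the control library (circles) and the LPA library (diamonds); bars span the deposited lower and upper FPKM bounds. The bounds are separate for NM_001013251 of SLC3A2 alone, and NM_001145144 of SLC1A5 goes from 62.3 to 128 FPKM with bounds that overlap.

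Over the isoforms of all 10 genes, 18 of 27 had a mean of at least 1 FPKM, of which 14 were higher and 4 lower in the LPA library, beside 50.5% higher and 49.5% lower among all 17005 isoforms at that level. The 4 lower ones were both SLC38A2 transcripts, NM_001145145 of SLC1A5 and NM_001012664 of SLC3A2 (6.95 and 6.09 FPKM). Bounds of the leading isoform were separate and higher for 3 of the 10 genes (SLC7A5, SLC3A2 and SLC7A11), beside 1.43% of all genes, and separate and lower for 0, beside 1.34%. The table's 2 isoforms of these genes with a splice pattern that differs from RefSeq reached at most 0.118 FPKM.

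The order of the levels differed between the libraries among the most abundant genes only. In the control it ran SLC38A2, SLC1A5, SLC3A2, SLC7A5, SLC38A1, SLC7A1, SLC7A6, SLC7A11, SLC43A1 and SLC1A4. In the LPA library the order at the top was SLC3A2, SLC1A5, SLC38A2 and SLC7A5, with the same order below. SLC1A5 and SLC3A2 were close in the control (152 and 148 FPKM), and without replicates no spread is known by which to separate neighbours. The top 4 genes accounted for 93.8% of the summed FPKM of the 10 in control cells and 93.7% after LPA. The 10 genes summed to 651 FPKM in control cells and 917 FPKM after LPA, 1.41 times as much.

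The other amino acid carriers of the plasma membrane were split between both directions. Of 35 further carrier genes 13 had a mean of at least 1 FPKM. Of these 6 were higher and 7 lower, beside 50.2% higher among all genes, and the median log2 ratio was -0.01. In either direction 0 genes were at least 1.5-fold apart. SLC38A5, or SNAT5, a carrier of glutamine, was the highest, with 23.8 FPKM in control cells and 32.3 FPKM after LPA. SLC6A9, a glycine carrier, had 3.12 and 4.11 FPKM, and SLC7A2, another cationic carrier, 1.70 and 2.12 FPKM. At the other end, SLC43A2, or LAT4, had 2.36 and 1.499 FPKM, and SLC7A8, or LAT2, which pairs with SLC3A2 as SLC7A5 does, had 4.69 and 3.66 FPKM. The glutamate carriers SLC1A3 (5.78 and 4.13 FPKM) and SLC1A1 (6.02 and 4.93 FPKM) and the taurine carrier SLC6A6 (7.77 and 6.18 FPKM) were also lower. The 10 genes made up 86.8% of the summed FPKM of all 45 plasma membrane carriers in control cells and 89.9% after LPA. The split between the 10 genes and the 35 others follows the choice of the 10, so it is no test of a difference.

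Carriers inside the cell had log2 ratios between -0.41 and 0.35. All 7 measured carriers of lysosomes were above 0, beside 50.2% of all genes, with a median log2 ratio of 0.20. They ran from SLC38A9, an arginine sensor of mTORC1 (7.88 and 8.21 FPKM), to the cystine exporter CTNS (2.75 and 3.63 FPKM). Among 10 measured amino acid carriers of mitochondria 8 were above 0, beside 50.2% of all genes, with a median of 0.07. Centred on the reference genes, 6 were above 0. SLC25A38, which carries glycine, had 18.7 and 24.1 FPKM, and SLC25A29, which carries basic amino acids, had 26.8 and 19.97 FPKM. None of the carriers in either list was 1.5-fold apart.

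**Figure D3:**
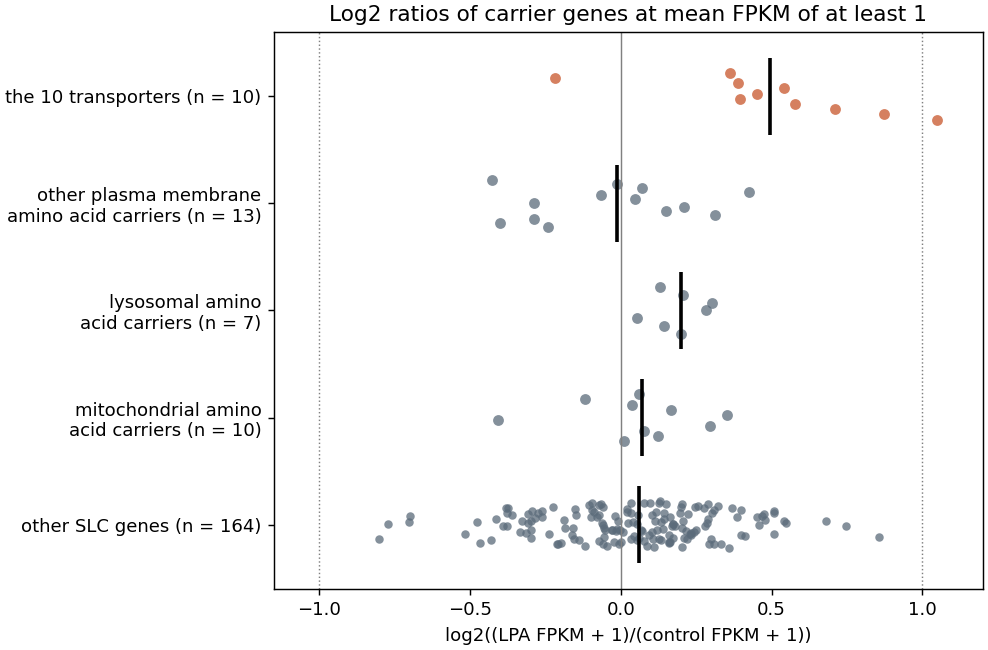
Log2 ratio (horizontal axis) of every gene with a mean of at least 1 FPKM in 5 lists; each point is a gene, black lines are list medians, and dotted lines mark 2-fold. The medians are 0.50 for the 10 transporters, -0.01 for the other plasma membrane carriers, 0.20 for lysosomal, 0.07 for mitochondrial and 0.06 for other SLC genes.

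Among 164 further genes with SLC symbols the median log2 ratio was 0.06. By 1.5-fold or more 3 of them were higher, beside 1.45% of all genes, and 4 lower, beside 1.54%. The highest at a mean of at least 5 FPKM were SLC43A3, a purine carrier of the same family as SLC43A1 (6.94 and 11.7 FPKM), SLC9A3R2, a scaffold protein and not a carrier (21.7 and 32.1 FPKM), the phosphate carrier SLC20A2 (6.60 and 10.1 FPKM), the nucleoside carrier SLC29A1 (33.8 and 48.5 FPKM) and the zinc and iron carrier SLC39A14 (15.2 and 22.1 FPKM). The lowest were the glucose carriers SLC2A1 (35.0 and 19.7 FPKM) and SLC2A6 (14.04 and 9.51 FPKM), the mitochondrial SLC25A24 (8.43 and 4.80 FPKM), SLC35A5 (6.80 and 4.61 FPKM) and SLC35B3 (8.03 and 5.53 FPKM). Of the 10 highest log2 ratios among the 198 SLC genes, 5 belonged to the transporters described here: SLC7A5, SLC3A2, SLC7A11, SLC7A1 and SLC1A5. Of the 20 highest, 6 did. The 10 transporters among these 198 genes were chosen with their ratios known, so nothing is read from these places. In the list of glucose and monocarboxylate carriers, with their chaperones, 8 genes were measured. Of these 3 were above and 5 below 0, beside 50.2% of all genes above 0, with a median of -0.18.

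ATF4 and its listed targets that are not carriers were mostly higher after LPA. Of 28 measured genes 25 were above 0, beside 50.2% of all genes, and 16 were at least 1.5-fold higher, beside 1.45%, with a median of 0.64. The 3 below 0 were PSPH (20.9 and 19.9 FPKM), CEBPB (74.1 and 71.3 FPKM) and CTH (5.36 and 4.76 FPKM). The largest log2 ratios were those of CHAC1, which degrades glutathione (4.53 and 19.03 FPKM), the glycyl-tRNA synthetase GARS (45.04 and 95.2 FPKM), the serine synthesis enzyme PSAT1 (34.9 and 70.8 FPKM) and the asparagine synthetase ASNS (86.3 and 159.6 FPKM). ATF4 itself, outside the largest of the list and given here after its values were seen, had 449 FPKM in control cells and 730 FPKM after LPA. MYC, whose motif was searched as well, is also given after its values were seen. It had 158 FPKM in control cells and 143 FPKM after LPA, a log2 ratio of -0.14. The part of either factor in the transporter values was not tested. This list was drawn up with the results of these libraries known.

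Transcript GC content moved with the log2 ratio across all genes, though not as a steady rise. The 11142 genes with a GC value were split into 10 groups of nearly equal size. The median log2 ratio was -0.19 in the group with the lowest GC content (31.8% to 39.2%) and 0.09 in the group between 50.3% and 53.6%. It fell back to 0.05 between 59.8% and 63.0%, the group of SLC7A5, and to 0.01 in the highest group. SLC38A2, with 38.1% GC, falls in the lowest group, and its log2 ratio less the median of that group was -0.03. SLC7A11, with 35.4% GC, lies in the same group and had 0.90 by the same measure. SLC7A5 (61.1% GC) had 1.00 and SLC3A2 (58.1% GC) 0.79. By this measure the median over the 10 genes was 0.47, and 9 of 10 were above 0. The part of GC content in the value of SLC38A2 was not tested beyond this subtraction.

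**Figure D4:**
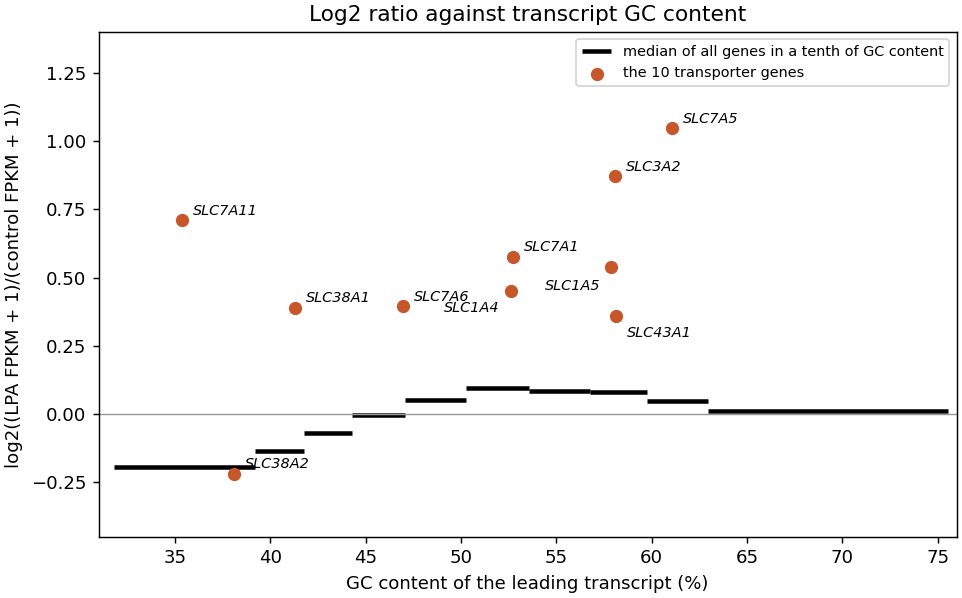
Log2 ratio (vertical axis) of the 10 transporter genes against the GC content of their leading transcript in percent, with black bars for the median of all genes in each of the 10 GC groups. SLC38A2 lies at the bar of the lowest group, while SLC7A11, at similar GC content, lies at 0.71.

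The libraries carried the markers of an epithelial line. Of 8 epithelial markers 7 were measured and VIL1 was listed at 0 in both libraries, and their sum was 3000 FPKM in control cells and 3921 FPKM after LPA. All 7 were higher in the LPA library, beside 50.2% of all genes, or 6 of 7 when centred on the reference genes. The median log2 ratio was 0.32, and the part of these markers in the transporter values was not tested. Of 7 fibroblast markers COL1A1 alone reached 1 FPKM (list sums 5.80 and 4.32 FPKM), of 6 immune markers CD68 alone (sums 3.09 and 3.34 FPKM), and no endothelial marker exceeded 0.0693 FPKM. The defining markers COL1A2, DCN and LUM of fibroblasts and PTPRC of immune cells were listed at 0 in both libraries. From bulk RNA, a difference in the number of cells of a type and in RNA per cell cannot be told apart.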

How the data were processed

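Poly-A RNA of HCT-116 cells was sequenced as 1 control and 1 LPA library, with groups assigned by title. Per the submitters' processing notes, the tools were TopHat2 2.0.12 and Cuffdiff 2.2.0, beside Cufflinks and bcl2fastq 2.16.0.10, and the build was hg38. How the libraries were scaled to each other is not given in the sources used here. FPKM per isoform were deposited by the authors with lower and upper bounds, per the file headers, for 63236 isoforms.

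Isoform FPKM were summed per symbol with Python 3.11.15 and pandas 2.3.3; 16 isoforms without an estimate in the LPA library were left out, and all 27 isoforms of the members had the status OK. Genes at a mean of at least 1 FPKM were compared with a pseudocount of 1. Depth was estimated from small values of FPKM multiplied by length in kb, among genes with 1 isoform over 2000 nt. The median of such values within a fixed range was taken as 1 fragment. It was 0.0597 for the control (304 genes) and 0.0634 for LPA (284 genes). The choice of range bears on these medians, so fragment numbers are approximate. The errors drawn from them cover counting only. GC content came from GENCODE release 29 transcripts, matched by RefSeq identifier for 95.3% of genes, and promoter windows from RefSeq, GRCh38.p14; a window was tied to a transcript whose GENCODE start lay within 100 bases. Table loci are printed with 1-based starts. The summing and fold steps were tested on simulated data.

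The members and gene lists were chosen with earlier results of these data known. Named were all members and up to 8 genes of each other list by size of log2 ratio. The 5 highest and lowest other SLC genes at 5 FPKM or more were also named. ATF4, MYC, the ATF4 targets below 0, and the overlapping genes and pseudogenes of members were added after their values were seen. The alternatives covered pseudocount, filter, leading isoform, scaling, short isoforms, isoforms unlike RefSeq, the fold limit and, added after seeing the data, GC content.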

Additional observations from a re-analysis of the deposited data

How the results depend on the processing

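No paired analysis was possible because each condition has 1 library, and for the same reason no library could be left out. The number of members with a log2 ratio above 0 was 9 of 10 under each alternative, or 6 of 7 when genes under a mean of 5 FPKM were left out, and no member changed sign. The count at least 2-fold higher, 1 as reported, was 3 with the leading isoform standing for the gene (SLC7A5, SLC3A2 and SLC1A5), 0 when centred on the reference genes, where SLC7A5 was at 1.00 and just below the limit, and 3 at a 1.5-fold limit. The count at least 1.5-fold higher, 3 as reported, was 5 with a pseudocount of 0.1, 4 with leading isoforms or total FPKM scaling, 2 with a pseudocount of 5 and 2 of 7 at a mean of at least 5 FPKM, and 6 genes had a plain FPKM ratio of at least 1.5. The median log2 ratio of the members was 0.35 with a pseudocount of 5 and 0.45 to 0.59 under the others. Among all genes the 1.5-fold counts, 169 higher and 180 lower as reported, were 281 and 372 with a pseudocount of 0.1, 70 and 41 with 5, 108 and 101 at a mean of at least 5 FPKM, 450 and 482 with leading isoforms, and 132 and 253 when centred on the reference genes; the 2-fold counts, 41 and 24 as reported, were 64 and 57, 19 and 16, 21 and 15, 122 and 124, and 36 and 29 in that order, and 24 and 7 without isoforms under 300 nt. Depth limits SLC1A4 and SLC43A1 most, with about 55 to 130 fragments behind each value.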

Other observations

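Genes that act on carrier turnover and on amino acid sensing were mostly close to the control. Of 24 listed genes 19 had a mean of at least 1 FPKM. Of these 7 were above and 12 below 0, beside 50.2% of all genes above 0, with a median log2 ratio of -0.06. ARRDC3, an arrestin-like adaptor that brings ubiquitin ligases to membrane proteins, was the lowest, with 9.03 FPKM in control cells and 5.34 FPKM after LPA. The kinase gene SGK3 had 1.81 and 1.16 FPKM, the ubiquitin ligase genes NEDD4 1.73 and 1.18 FPKM and ITCH 9.44 and 7.71 FPKM, and the Rag GTPase gene RRAGC 7.17 and 5.54 FPKM. MTOR, the kinase that amino acids activate, was the highest of the list at 3.73 and 5.17 FPKM. CD44, a surface glycoprotein whose variant form binds SLC7A11, had 76.6 and 88.1 FPKM. SESN1, a leucine sensor, had 4.54 and 3.78 FPKM.

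The SLC7A5 pseudogenes, which can share reads with SLC7A5, were low: SLC7A5P1 had 1.43 and 1.68 FPKM and SLC7A5P2 had 0.568 and 0.376 FPKM.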
